A study of Cucumis sativus var. sativus with 11 samples.

Results

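Cucumber (Cucumis sativus) ovaries that had received pollen on a plant already bearing older fruits, called inhibited, were compared with ovaries that had received no pollen. Both kinds were taken 1 day after the flower opened. The 5 libraries of this comparison, 2 from inhibited and 3 from unpollinated ovaries, were chosen by their labels from the 11 libraries of the series. The other 6 libraries, 3 from pollinated ovaries of the same age and 3 from ovaries at anthesis (the day of flower opening), served as reference points. All ovaries came from Elem Female, a gynoecious line (female flowers only) that is not parthenocarpic, grown in a net-house, and each library was made from 1 ovary. An inhibited ovary had pollen and older fruits on its plant. An unpollinated ovary had no pollen, and its label does not mention older fruits. By the labels, both conditions thus change together in this comparison. Pollinated ovaries had pollen and no mention of older fruits. As far as the labels say, they differ from unpollinated ovaries in pollen and from inhibited ovaries in the older fruits. Whether the effect of older fruits depends on pollen cannot be tested, since no unpollinated ovary was labelled as from a plant with older fruits. Both inhibited libraries and unpollinated replicates 2 and 3 carried 1 form of the second index (a sequencing barcode), and unpollinated replicate 1 and all pollinated and anthesis libraries carried the other. Any difference between inhibited and pollinated or anthesis libraries therefore cannot be told apart from that of the index form.

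The cucumber ovary lies below the petals and is already shaped like a small fruit when the flower opens. In plants that are not parthenocarpic, pollen tubes must grow into the ovary before it resumes growth by cell division and cell expansion, a step called fruit set. Without pollen the ovary stops growing and withers. Fruits that set early on a plant restrain ovaries that open later, even when these are pollinated, so the comparison sets side by side the 2 ways in which an ovary can fail to become a fruit.

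Only gene identifiers can be given. The files pair none of them with a name, and 0 of them matched the reference table of 23999 genes. Lists of pathway genes, tissue markers and pollen markers could therefore not be applied, and the labelled tissue was not checked against markers. The libraries of the series held between 18158218 and 26456643 reads assigned to genes. Inhibited replicates 1 and 2 had 20156 and 20395 genes with at least 1 read, more than any of the 3 unpollinated libraries (19849 to 20080). The exact two-sided permutation p was 0.1, the smallest that 2 against 3 libraries allow. Reads not assigned to a single gene made up a raised share in 1 library of each kind, 24.8% in inhibited replicate 2 and 16.8% in unpollinated replicate 3, against 10.9 to 12.8% in the other 3 (exact permutation p = 0.6).

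The 2 kinds of ovary differed more from each other than libraries of 1 kind did, with modest margins. The root mean square difference in log2 level over all genes tested was 0.58 to 0.69 for the 6 pairs of 1 inhibited and 1 unpollinated library. It was 0.49 between the inhibited libraries and 0.39 to 0.56 among the unpollinated ones, where the largest value was between replicates 1 and 3. Inhibited libraries were on average nearer to anthesis (mean 0.59 over 6 pairs) than to pollinated (0.63) or unpollinated libraries (0.64), but the ranges overlapped (0.53 to 0.68, 0.56 to 0.69 and 0.58 to 0.69).

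Of the 18679 genes tested, 19.6% were called between inhibited and unpollinated ovaries, with 1833 higher and 1836 lower in inhibited ovaries (9.81 and 9.83%). Calls are those of the quasi-likelihood test of edgeR, at an adjusted p (Benjamini-Hochberg) below 0.05. Most differences were small: the median log2 fold change was 0.51 among the higher and -0.53 among the lower genes. In CPM (reads per 1000000 gene reads, on library sizes adjusted by TMM), the inhibited and unpollinated libraries did not overlap for 1828 of the higher and 1833 of the lower genes, while 47.2% of all genes tested did not overlap. RNA came from whole tissue, so fewer cells of a type and less RNA per cell cannot be told apart. The count of 3669 was 1785 (894 higher, 891 lower) without unpollinated replicate 2 and 1955 (927 and 1028) without inhibited replicate 2. Without unpollinated replicate 1, the only library of the 5 with the other index form, it was 3347.

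The directions were balanced for small differences and unequal for large ones. At 1.5-fold or more, 740 genes were higher and 750 lower in inhibited ovaries. At 2-fold or more the counts were 291 and 241 (1.56 and 1.29% of the genes tested), at 4-fold 114 and 43, and at 8-fold 74 and 7 (0.396 and 0.0375%). The last pair depended on the filter on low genes, with 102 and 10 when no gene was removed and 38 and 5 at 1 CPM or more in 2 libraries. The excess of higher genes at large folds lay among genes with low levels. With the genes divided by mean level into 4 groups of equal size, the lowest group, whose median was 1.83 CPM, held 72 of the 74 genes and 5 of the 7, and the 2 upper groups held 0 of either (edgeR; also 0 at an unadjusted p under 0.05, with DESeq2 and with limma voom). In the highest group, with a median of 105 CPM, more genes were called (13.5% higher and 15.5% lower, against 5.07 and 3.10% in the lowest), and the median size of a called difference was 0.43 on the log2 scale. The 7 genes became 15 without inhibited replicate 1 and 16 without inhibited replicate 2.

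**Figure D1:**
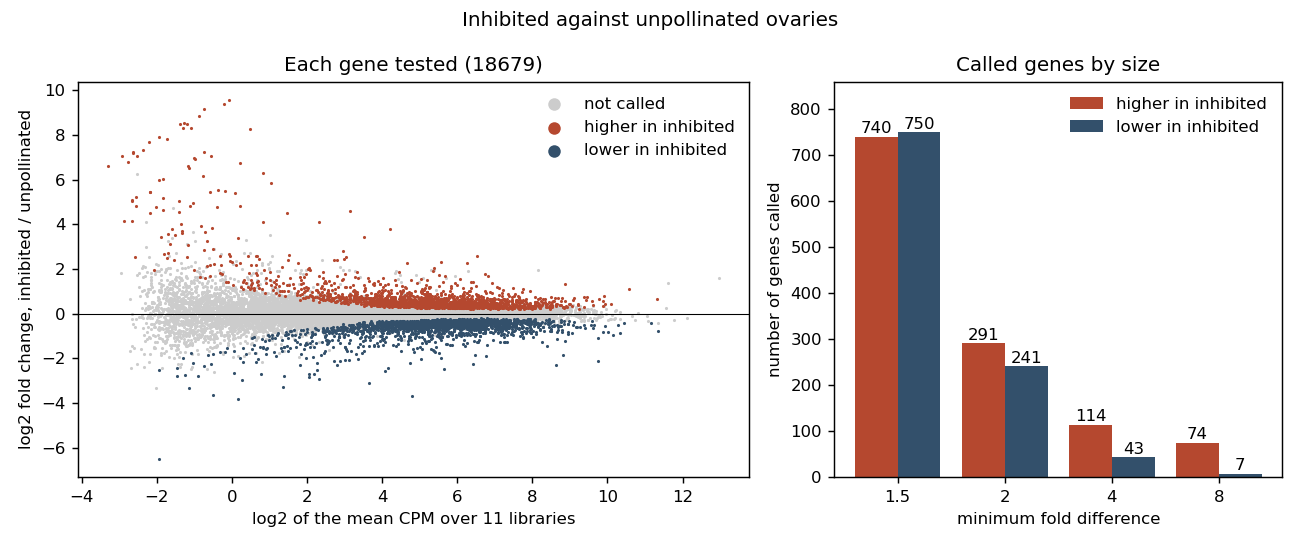
Left, the log2 fold change of inhibited over unpollinated ovaries (vertical axis) for each of 18679 genes against the log2 of its mean CPM over 11 libraries, with called genes coloured by direction. Right, the number of called genes at each minimum fold: 740 higher and 750 lower at 1.5-fold, but 74 and 7 at 8-fold, and the large positive differences sit at low mean levels.

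Genes that moved the most transcripts were those with the largest difference in mean CPM among genes called at 2-fold or more without overlap. Csa4G295440, the first of these on the higher side, had 1536 and 1599 CPM in inhibited ovaries against 990.4, 634 and 553 CPM in unpollinated ones. Pollinated libraries had 1157, 1651 and 1767 CPM and anthesis libraries 2290.3, 2031 and 2719.9 CPM. The gene was thus highest at anthesis in every library, and lowest in unpollinated ovaries. Its log2 fold change of inhibited over unpollinated was 1.11 ± 0.23 SE (edgeR adjusted p = 0.006), and 0.92 without unpollinated replicate 3 and inhibited replicate 2, where it was no longer called (edgeR adjusted p = 0.0608). Csa7G428160 had 626 and 669 CPM in inhibited ovaries and 278, 221 and 280.2 CPM in unpollinated ones. It stood at 558, 525 and 614 CPM in pollinated and 465, 411 and 464 CPM in anthesis ovaries. Here the inhibited libraries were above all 9 others and the unpollinated libraries below all others. Inhibited over unpollinated, its log2 fold change came to 1.32 ± 0.11 SE (edgeR adjusted p = 3.29e-05).

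On the lower side, the unpollinated ovaries stood alone with high levels. Csa2G024440 had 479 and 449.8 CPM in inhibited ovaries, against 1679.5, 2056 and 2235 CPM in unpollinated ones. Pollinated libraries had 766, 471 and 243 CPM, and anthesis libraries 342, 449.8 and 296 CPM. The inhibited libraries lay within the range of the pollinated libraries and at or above the top of the anthesis range, and all 8 libraries other than the unpollinated ones lay at or under 766 CPM. The log2 fold change of inhibited over unpollinated was -2.10 ± 0.36 SE (edgeR adjusted p = 0.00242). Csa6G518000 had 234 and 159.5 CPM in inhibited and 753, 1222 and 945 CPM in unpollinated ovaries. Its pollinated libraries had 402, 132 and 154 CPM, and its anthesis libraries 111, 186 and 92.4 CPM. The unpollinated libraries were again above all others. Its log2 fold change came to -2.30 ± 0.45 SE (edgeR adjusted p = 0.00501). It was -2.05 without inhibited replicate 2 and -2.08 without that library and unpollinated replicate 3, and not called in either fit (edgeR adjusted p = 0.0514 and 0.0625). Between inhibited and pollinated ovaries none of these 4 genes was called, with log2 fold changes of 0.04 ± 0.23, 0.19 ± 0.11, -0.09 ± 0.33 and -0.21 ± 0.42 (SE; edgeR adjusted p = 0.94, 0.297, 0.907 and 0.801, in the order given). Between pollinated and unpollinated ovaries all 4 were called, in the direction of inhibited over unpollinated, with log2 fold changes of 1.07 ± 0.21, 1.12 ± 0.10, -2.01 ± 0.31 and -2.09 ± 0.39 (SE; edgeR adjusted p = 0.00267, 2.38e-05, 0.000615 and 0.00192). The genes were chosen in the same unpollinated libraries, which favours this.

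The same pattern held for the called genes as sets: unpollinated ovaries lay farther from anthesis than inhibited ovaries did. The 1833 higher genes had a median log2 level, relative to the anthesis mean, of 0.11 and 0.12 in the inhibited libraries and -0.37, -0.48 and -0.42 in the unpollinated ones. The 1836 lower genes had medians of -0.08 and -0.08 in inhibited against 0.40, 0.51 and 0.45 in unpollinated libraries. Over all genes tested every library had a median between -0.005 and 0.006. These genes were chosen in these 5 libraries, so their separation there is given by the choice, and both kinds of ovary are set against the same anthesis libraries. Pollinated libraries took part in the choice only through the filter, the scaling and the shared estimate of the spread. Replicates 2 and 3 of that group lay at 0.03 and 0.03 for the higher genes and at 0.04 and 0.03 for the lower genes, close to anthesis. Pollinated replicate 1 stood apart, on the side of the unpollinated libraries in both sets, at -0.16 and 0.27. Its unassigned share was 21.1%, against 12.4 and 20.5% in replicates 2 and 3, and the part of that share in the shift was not tested.

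Among genes that differed 2-fold or more, the higher and the lower set differed in where the inhibited ovaries stood. For the 291 higher genes the inhibited medians were 0.75 and 0.62 and the unpollinated medians -0.64, -0.84 and -0.72, so that the groups lay about equally far from anthesis on either side. For the 241 lower genes the inhibited medians were -0.29 and -0.22, while the unpollinated medians were 1.00, 1.17 and 1.03. Pollinated replicates 1, 2 and 3 had 0.00, 0.21 and 0.14 for the higher and 0.60, 0.06 and 0.02 for the lower genes.

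**Figure D2:**
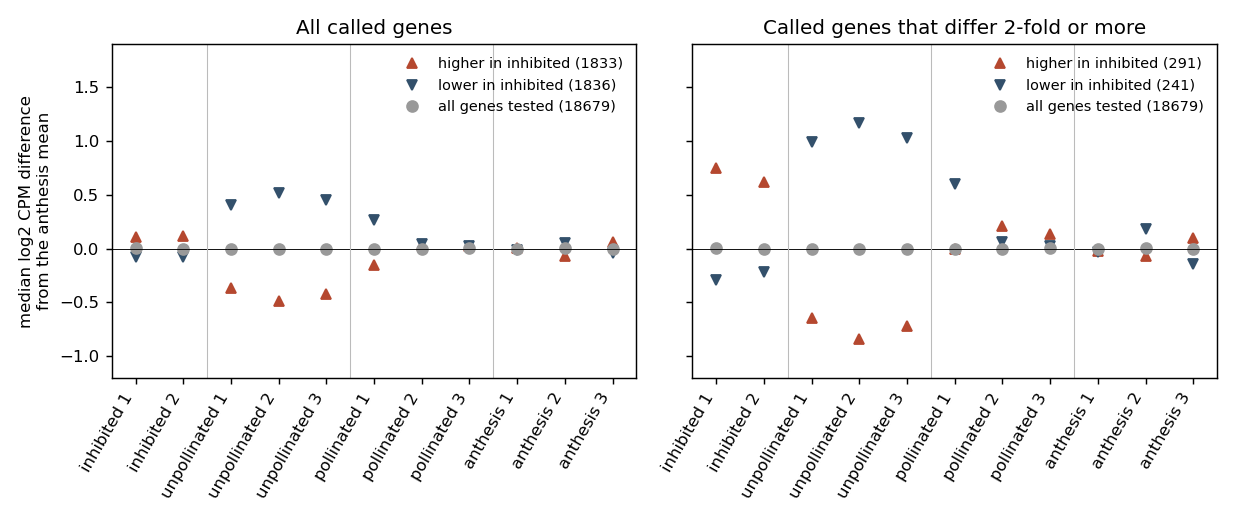
Median log2 CPM difference from the anthesis mean (vertical axis) in each of the 11 libraries, for genes called higher or lower in inhibited than in unpollinated ovaries and for all genes tested; left, all called genes, right, those that differ 2-fold or more. In the left plot the unpollinated libraries lie between -0.48 and -0.37 or between 0.40 and 0.51, and the inhibited libraries between -0.08 and 0.12.

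Pollinated and anthesis ovaries allow a second comparison, whose group means share no library with those of the first. It covers the change over 1 day in ovaries labelled as pollinated with no mention of older fruits. Both comparisons came from 1 fit, in which all libraries shared the filter, the scaling and the estimate of the spread. Anthesis replicate 3 was labelled with lane 2 and every other library of the series with lane 3. Relative to anthesis, 7.39% of the 18679 genes were called higher in pollinated ovaries and 9% lower. Of the 1836 genes that were lower in inhibited than in unpollinated ovaries, 286 were called higher (15.6%) and 82 lower (4.47%) in this second comparison. Genes that stood lower in inhibited ovaries were thus called higher in pollinated than in anthesis ovaries at 2.11 times the share of all genes, and called lower at 0.496 times. Under 22 other settings the first ratio was between 1.68 and 3.55, and the second was under 1 in all but 1 of them (1.33 without the 4 libraries of the series whose unassigned share was raised). In fits of only the groups compared, which share no library, the shares called higher and lower were 16.3 and 4.23%. Over all genes these shares were 8.10 and 9.37% in those fits. The second comparison spans 1 day as well as pollination, and unpollinated ovaries of that age had moved the same way. For the 286 genes the median log2 level relative to anthesis was 0.63, 0.39 and 0.38 in the pollinated and 0.46, 0.65 and 0.62 in the unpollinated libraries, with -0.04 and 0.05 in the inhibited ones. The gap between inhibited and unpollinated libraries is given by the choice of the genes. So is that between pollinated and anthesis libraries, and both choices favour unpollinated medians above the anthesis mean.

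For the 1833 genes higher in inhibited ovaries, 139 were called higher (7.58%) and 224 lower (12.2%) in pollinated ovaries than at anthesis. The first share was near the background of 7.39%, although the ratio ran from 0.907 (in fits of only the groups compared) to 3.94 (without the 4 libraries). The second was 1.36 times the background of 9%, and the ratio ran from 0.867 (without anthesis replicate 3) to 1.86 over the other settings, so it was not on 1 side of the background in all of them. For these 224 genes too the unpollinated libraries lay on the side of the pollinated ones, with medians of -0.54, -0.70 and -0.69 against -0.54, -0.39 and -0.38, and -0.13 and -0.10 in the inhibited libraries. Here the choice of the genes favours unpollinated medians below the anthesis mean. Called genes had higher mean levels than genes not called, as the 4 groups by level show, and genes with more reads are also more easily called in the second comparison. The part this has in the shares was not tested.

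The counts themselves moved with the unassigned share and with single libraries. With that share as a covariate the 286 and 82 genes became 90 and 28, and the 139 and 224 became 65 and 65. Of all genes tested, 2.32% were then called higher and 3.28% lower in pollinated than in anthesis ovaries. Without anthesis replicate 3 these were 3.04 and 5.06%, so the background moved along with the counts. When the 4 libraries with a raised share were left out, the counts were 43 and 41, and 40 and 26. Genes lower in inhibited ovaries were then about as often called lower as higher in pollinated ovaries. Both shares were still above those over all genes in that fit, the share called higher by the larger ratio. The 286 genes became 185 without inhibited replicate 1, 140 without unpollinated replicate 2, 170 without pollinated replicate 1, and 158 and 131 without anthesis replicates 1 and 3. The 82 became 41, 38, 43, 37, 52, 50 and 49 without inhibited replicate 2, unpollinated replicate 2, pollinated replicates 2 and 3, and anthesis replicates 1, 2 and 3. For the genes higher in inhibited ovaries, the 139 became 85 without unpollinated replicate 2, 83 and 77 without pollinated replicates 2 and 3, and 83, 91 and 89 without anthesis replicates 1, 2 and 3. The 224 became 128 without inhibited replicate 2, 82 and 117 without unpollinated replicates 2 and 3, 108, 139 and 118 without pollinated replicates 1, 2 and 3, and 95 and 79 without anthesis replicates 1 and 3.

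**Figure D3:**
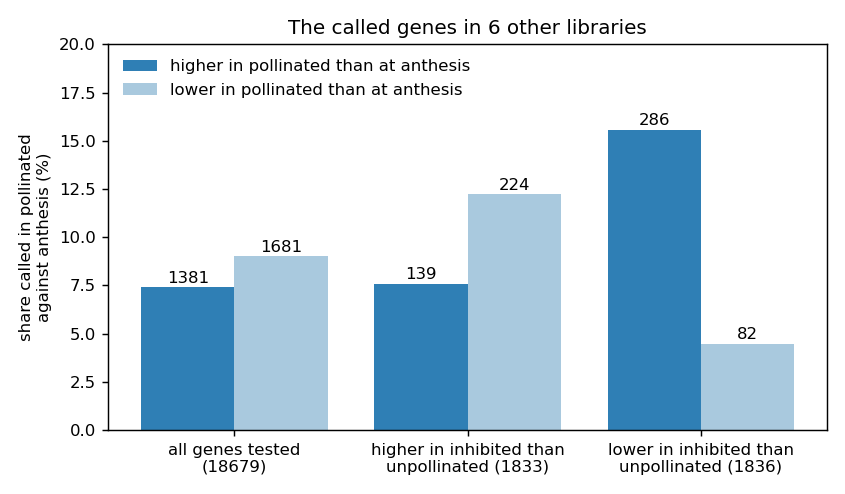
Share of genes (vertical axis, %) called higher or lower in pollinated ovaries than at anthesis, for all 18679 genes tested and for genes called higher or lower in inhibited than in unpollinated ovaries; numbers above the bars are genes. Among genes lower in inhibited ovaries, 286 were called higher and 82 lower in pollinated ovaries, against 139 and 224 among genes higher in inhibited ovaries.

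Named genes with opposite directions in the 2 comparisons show what this looks like in single libraries. Csa1G611290 was the most reduced of 278 such genes on the lower side, with 2.83 and 1.52 CPM in inhibited ovaries against 16.8, 15.3 and 25.3 CPM in unpollinated ones. Pollinated libraries had 24.7, 12.4 and 13.8 CPM and anthesis libraries 7.05, 9.66 and 8.34 CPM. The gene was therefore above its anthesis range in every pollinated and unpollinated library, and below it in both inhibited libraries. Its log2 fold change of inhibited over unpollinated was -3.09 ± 0.37 SE (edgeR adjusted p = 0.000284) and that of pollinated over anthesis 1.01 ± 0.27 SE (edgeR adjusted p = 0.0259). Without inhibited replicate 2 and unpollinated replicate 3, also when pollinated replicates 1 and 3 were left out as well, the first value was -2.50.

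Csa3G444610 had 0.849 and 2.09 CPM in inhibited, 6.24, 8.75 and 9.05 CPM in unpollinated, 8.91, 5.79 and 4.93 CPM in pollinated and 2.56, 2.68 and 1.07 CPM in anthesis ovaries. Inhibited and anthesis libraries overlapped, and all 6 libraries of the other groups were higher. Relative to unpollinated ovaries it was lower, the log2 difference being -2.49 ± 0.45 SE (edgeR adjusted p = 0.00305), with -1.95 without inhibited replicate 1 (edgeR adjusted p = 0.0317), -3.23 without inhibited replicate 2, and -3.14 without that library and unpollinated replicate 3, with or without pollinated replicates 1 and 3. Between pollinated and anthesis ovaries it was 1.62 ± 0.36 SE (edgeR adjusted p = 0.0111). Both genes were also lower in inhibited than in pollinated ovaries (log2 fold changes -2.91 ± 0.37 and -2.19 ± 0.45 SE, edgeR adjusted p = 0.000589 and 0.00868). They were named by a rule that picks low inhibited and high pollinated levels, which favours this. Pollinated and unpollinated ovaries were not called apart for either gene (-0.18 ± 0.26 and -0.30 ± 0.33 SE, edgeR adjusted p = 0.643 and 0.531).

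On the higher side, 211 genes were eligible, and those named stood near their anthesis levels or above them in inhibited ovaries, lower in pollinated ovaries and lowest in unpollinated ones. Csa3G354520 had 6.67 and 4.97 CPM in inhibited ovaries and 1.51, 2.08 and 1.48 CPM in unpollinated ones. Pollinated libraries had 2.41, 3.31 and 3.04 CPM and anthesis libraries 6.28, 5.56 and 5.54 CPM. Its inhibited libraries lay on both sides of the anthesis range, with all pollinated libraries lower and all unpollinated libraries lower still. The log2 fold change of inhibited over unpollinated was 1.78 ± 0.23 SE (edgeR adjusted p = 0.00047) and that of pollinated over anthesis -0.98 ± 0.20 SE (edgeR adjusted p = 0.00783), while that of unpollinated over anthesis was -1.77 ± 0.21 SE (edgeR adjusted p = 0.000184). Csa4G436980 had 78.6 and 67.0 CPM in inhibited, 25.7, 19.8 and 21.0 CPM in unpollinated, 40.3, 39.5 and 42.3 CPM in pollinated and 51.5, 55.2 and 59.0 CPM in anthesis ovaries. No 2 groups overlapped for this gene, and the order from high to low was inhibited, anthesis, pollinated, unpollinated. With a log2 fold change of 1.72 ± 0.11 SE it had the third smallest p of all genes (edgeR adjusted p = 9.27e-06), and between pollinated and anthesis ovaries it was called lower at -0.44 ± 0.10 SE (edgeR adjusted p = 0.0131). From anthesis to unpollinated ovaries it fell by 1.32 ± 0.10 SE on the log2 scale (edgeR adjusted p = 4.99e-05).

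On the lower side, 77 genes that moved the same way in both comparisons met the rule for naming. Before its limits on level and overlap there were 82 (4.47% of the 1836 lower genes, against 9% of all genes). Csa3G101810 had 8.89 and 7.23 CPM in inhibited and 59.4, 52.2 and 18.6 CPM in unpollinated ovaries. Pollinated libraries had 4.08, 1.61 and 2.74 CPM and anthesis libraries 10.6, 22.0 and 9.57 CPM. Pollinated libraries were lowest, then inhibited, and unpollinated replicate 3 lay below anthesis replicate 2, so that unpollinated and anthesis ovaries overlapped. The log2 fold change of inhibited over unpollinated was -2.42 ± 0.49 SE (edgeR adjusted p = 0.00578), and -2.29 without inhibited replicate 2, where it was not called (edgeR adjusted p = 0.0507). That of pollinated over anthesis was -2.35 ± 0.47 SE (edgeR adjusted p = 0.00678). Csa5G606780 had 2.75 and 5.19 CPM in inhibited, 12.9, 19.0 and 17.5 CPM in unpollinated, 3.60, 1.94 and 0.732 CPM in pollinated and 7.83, 6.59 and 10.6 CPM in anthesis ovaries. All unpollinated libraries were above anthesis, and all inhibited and pollinated libraries below it. The log2 fold changes were -2.08 ± 0.44 SE for inhibited over unpollinated (edgeR adjusted p = 0.00688) and -2.05 ± 0.40 SE for pollinated over anthesis (edgeR adjusted p = 0.00637). Without inhibited replicate 1 the former was -1.68 and not called (edgeR adjusted p = 0.0599).

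**Figure D4:**
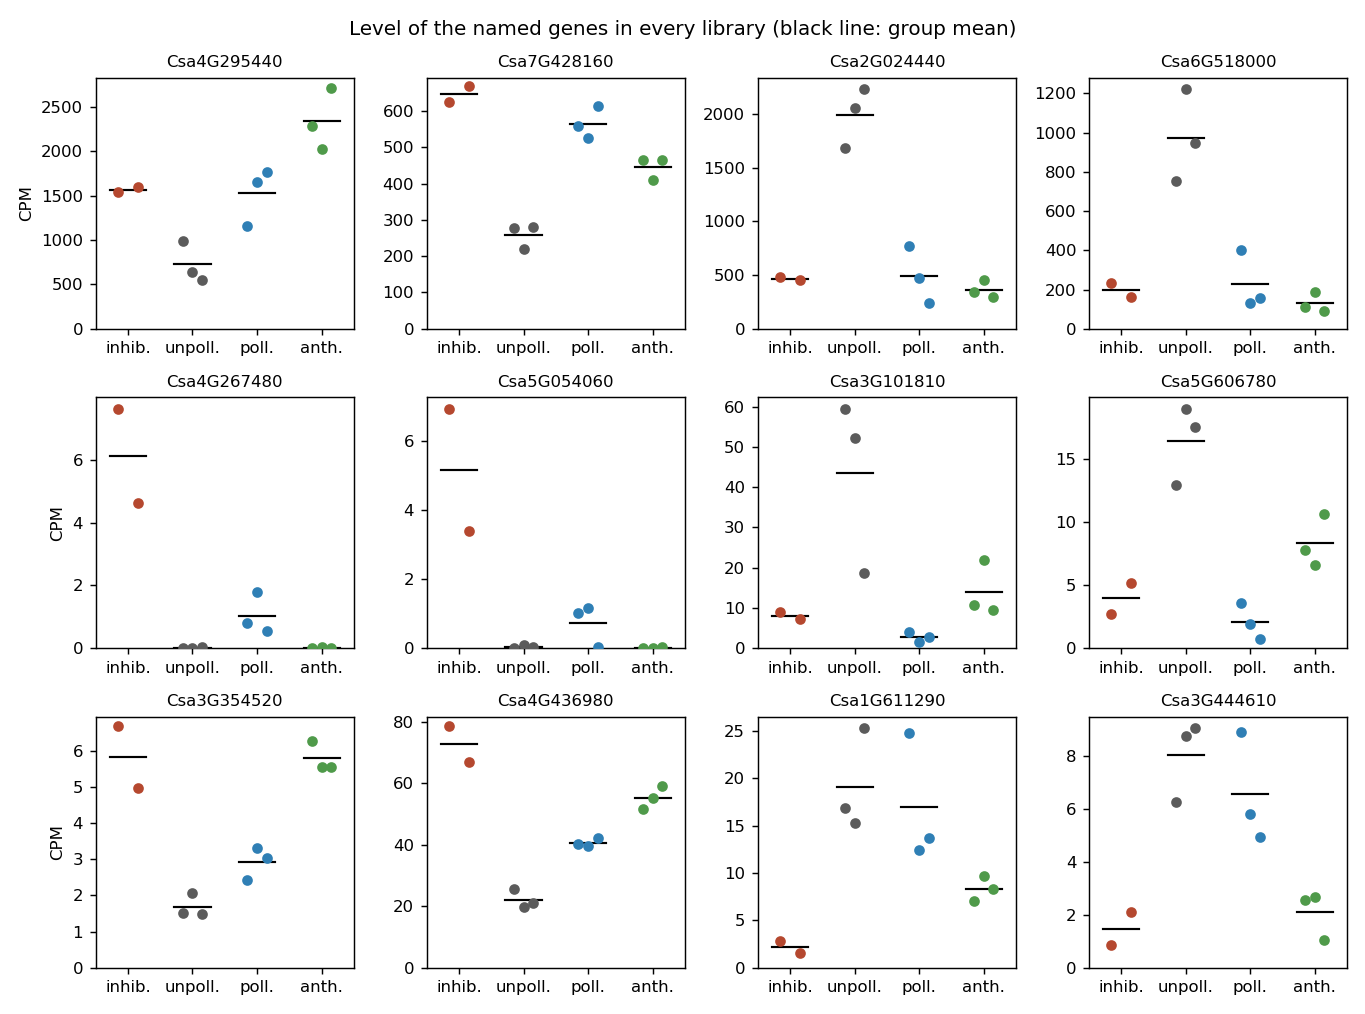
Level in CPM (vertical axes, linear from 0) of the 12 named genes in every library of the inhibited, unpollinated, pollinated and anthesis groups; points are libraries and black lines group means. For Csa2G024440 and Csa6G518000 the unpollinated libraries lie above all others, and for Csa1G611290 the inhibited libraries lie at 2.83 and 1.52 CPM, below all others.

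The 74 genes at least 8-fold higher in inhibited ovaries were for the most part close to undetected in unpollinated ovaries. Over the 3 unpollinated libraries 20 of them had 0 reads, 25 had 1 to 3 reads and 29 had more. A count of 0 over these libraries allows a level of up to 0.0433 CPM (3 reads, counting error only). Their median level was 2.08 and 1.33 CPM in inhibited replicates 1 and 2, with reads for all 74 genes in both, and 61 of the 74 had the higher level in replicate 1. In unpollinated libraries only 30 to 38 of the 74 genes had any read. The median log2 fold change was 5.43 as fitted, which for genes without reads depends on the prior count of the model. With groups of fewer than 3 reads set to 3 reads over the group, the median was 4.61, and 73 called genes were at least 8-fold higher by such sums.

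By the number of these genes with reads, anthesis libraries lay near the unpollinated ones. At anthesis 34 to 43 of the 74 genes had any read, and 43 had 3 or fewer reads over the 3 libraries. In pollinated libraries 66 to 74 genes had reads, and 2 genes had 3 or fewer over the 3 libraries. The median over the 74 genes was 0.268, 0.393 and 0.231 CPM in pollinated replicates 1, 2 and 3, against at most 0.0395 CPM in any anthesis library. Summed reads gave another order. The 74 genes held 0.00470 to 0.00574% of gene reads at anthesis, 0.00650 to 0.00946% in pollinated and 0.000665 to 0.00162% in unpollinated libraries, so that anthesis lay nearer to pollinated. A few genes made up much of the anthesis sum, the largest being Csa4G639110 with 21.8, 20.4 and 23.6 CPM at anthesis. Csa2G379350, picked here after its values were seen, had 10.04, 8.59 and 12.02 CPM at anthesis, 10.7, 15.3 and 12.02 CPM in pollinated, 1.19, 0.285 and 0.261 CPM in unpollinated and 15.3 and 12.5 CPM in inhibited libraries. Median pollinated levels lay between the anthesis and the inhibited ones, but the choice of genes high in the inhibited libraries favours that order. Group means of pollinated and anthesis ovaries rest on neither inhibited nor unpollinated libraries. The filter, the scaling and the estimate of the spread used all libraries of the series. In the comparison of pollinated with anthesis ovaries, 25 of the 74 genes were called higher (33.8%, against 7.39% of all genes). In edgeR 0 were called lower (also 0 at an unadjusted p under 0.05, with DESeq2 and with limma voom). A lower call was hardly possible for the 43 genes with 3 or fewer reads at anthesis. All 3 pollinated libraries were above all 3 anthesis libraries for 38 of the 74 (51.4%), against 18.7% of all genes tested. Of the 74, 72 were in the lowest of the 4 groups by level, and the shares over all genes were not matched for level. In fits of only the groups compared, which share no library, 66 genes were at least 8-fold higher. Of these, 11 were called higher in pollinated than in anthesis ovaries, against 8.10% of all genes. The 25 of the main fit became 49 without unpollinated replicate 3, under which 107 genes passed 8-fold, and 14, 15 and 13 without pollinated replicate 2 and anthesis replicates 1 and 3. Tissue of a pollinated ovary can hold pollen tubes, and how far these genes were read from them was not tested, as no markers could be applied.

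Csa4G267480 and Csa5G054060, both among the 74, had the largest log2 fold changes among the 111 that were called higher in both comparisons, without overlap of inhibited and unpollinated libraries and with a mean of at least 5 CPM in inhibited ovaries. Csa4G267480 had 188 and 82 reads in the inhibited libraries, 0, 0 and 1 reads in the unpollinated, 15, 43 and 14 in the pollinated and 0, 1 and 0 in the anthesis libraries. Its inhibited levels were 7.60 and 4.63 CPM, and its pollinated levels 0.805, 1.78 and 0.539 CPM. Every library that had received pollen held at least 14 reads, and every library that had not held at most 1. The rule by which the gene was named favours this split. Summed over libraries, inhibited ovaries had 441 times the level of unpollinated ones. The exact 95% counting interval of this ratio ran from 78.5 to 17485 and leaves out the spread between ovaries (edgeR adjusted p = 8.19e-05). Its fitted log2 fold change of 8.28 became 10.17 without unpollinated replicate 3, which held the single read, 10.52 without that library and inhibited replicate 2, 10.55 when pollinated replicates 1 and 3 were also left out, and 7.63 with limma voom. Csa5G054060 had 171 and 60 reads in inhibited, 0, 2 and 1 in unpollinated, 19, 28 and 1 in pollinated and 0, 0 and 1 in anthesis libraries. Pollinated replicate 3 was as low as the libraries without pollen. The ratio of inhibited to unpollinated was 126 (exact 95% counting interval 42.5 to 614; edgeR adjusted p = 0.001). Its fitted log2 fold change of 6.74 was 6.11 without inhibited replicate 1 and 7.55 without unpollinated replicate 2. Both genes were higher in inhibited than in pollinated ovaries (log2 fold changes 2.55 ± 0.48 and 2.83 ± 0.70 SE, edgeR adjusted p = 0.00545 and 0.0212). They were named for high levels in the inhibited libraries, which favours this.

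**Figure D5:**
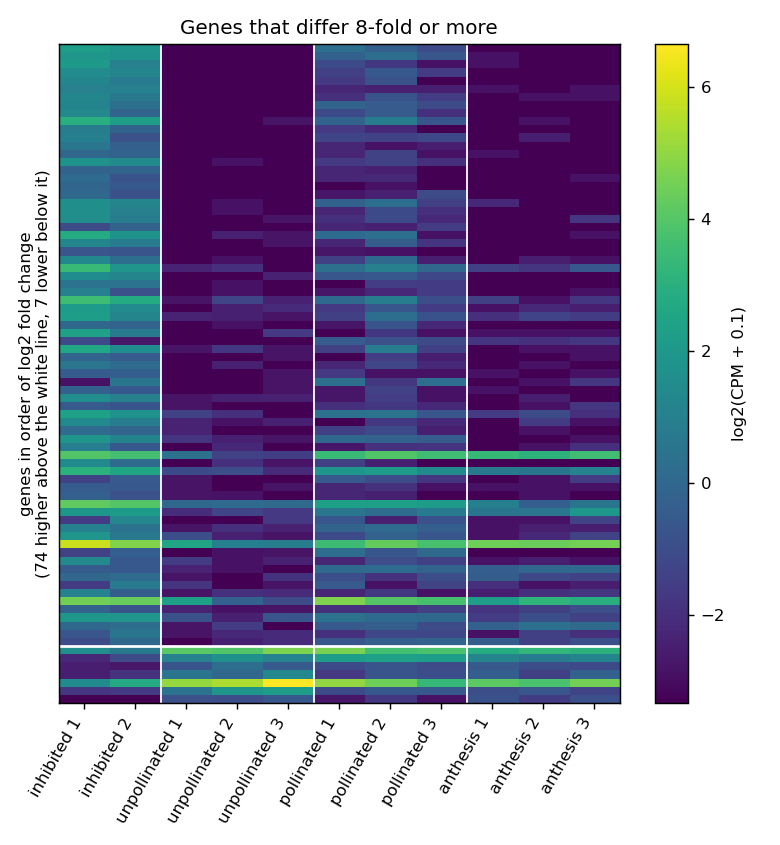
Level of the 81 genes that differ 8-fold or more, as log2(CPM + 0.1) by colour, in the 11 libraries (columns); genes are rows in order of log2 fold change, with 74 higher above the white line and 7 lower below it. Most of the 74 are darkest in unpollinated and anthesis libraries, brighter in inhibited libraries and in between in pollinated ones.

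The 7 genes at least 8-fold lower in inhibited ovaries had another pattern: all 7 had reads in every unpollinated, pollinated and anthesis library. Their median level was 0.121 and 0.226 CPM in inhibited ovaries and 1.33, 3.13 and 2.39 CPM in unpollinated ones, with 0.376, 0.579 and 0.578 CPM in pollinated and 0.698, 0.537 and 0.751 CPM in anthesis libraries. In inhibited ovaries 1 of the 7 had 0 reads over both libraries, 1 had 1 to 3 reads and 5 had more. Over all 23248 genes in the table, 120 had 0 reads in the 3 unpollinated libraries and at least 1 read in both inhibited libraries, and 29 had 0 reads in both inhibited and at least 1 read in each unpollinated library. With at least 10 reads in each library asked for, these were 15 and 1. The reverse count asks for reads in 3 libraries and the first in 2, so their sizes are not directly comparable.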

How the data were processed

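The analysis used the deposited table of raw read counts per gene for 11 libraries, with 23248 genes. Tools named in the submitters' processing notes are STAR 2.5.0a, DESeq2 and HTSeq 0.6.1p1, with no role for each. Genome build, annotation and strand setting were not given in the sources used here, so overlapping genes and near-identical copies may share reads. The table's 5 lines without a gene took no part in library sizes or tests. They held 10.8 to 24.8% of the reads in a library.

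Groups were taken from the labels. Replicate numbers only name libraries. No label says that the ovaries of a group grew on separate plants, so p-values reflect the spread between these ovaries. No within-group pair was a duplicate (chi-square per gene 10.05 or more).

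Low genes were removed with filterByExpr in edgeR 4.0.16 (18679 kept), scaled by TMM, and fitted in 1 quasi-likelihood model of 4 group means over all libraries (R 4.3.3). The inhibited group has 2 libraries and so shares the estimate of the spread with the others (common biological coefficient of variation 12.3%). SEs of log2 fold changes were obtained from the F statistic (size over the root of F). Log2 CPM used a prior count of 2. Counting intervals (95%) are exact conditional binomial, cover counting error only, and treat amplified reads as independent molecules.

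The comparisons, gene rules and alternatives were chosen with earlier results of these data known. As identifiers had no names, 2 genes per direction were named for each of 3 questions: the largest difference in mean CPM among genes called at 2-fold or more; and the largest log2 fold change among genes called in the same, or in opposite, directions in pollinated against anthesis ovaries, with at least 5 CPM in the higher group. Each also needed inhibited and unpollinated libraries that did not overlap. The 8-fold limit was chosen after the fold changes were seen. Alternatives were RLE or no scaling factors, DESeq2 1.42.0, limma voom (limma 3.58.1), other filters, only the groups compared, the second index or the unassigned share as a term, and left-out libraries. The pipeline was tested on simulated data.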

Additional observations from a re-analysis of the deposited data

How the results depend on the processing

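Across the settings tried, no named gene changed direction, and the median log2 difference of all tested genes was between -0.009 and 0.021. No scaling moved the share of higher among all calls by 10 percentage points. With 1 library left out, 38 of 132 counts moved by over 1.5 times. The ranges were 1785 to 4052 for all calls, 894 to 1875 for higher, 891 to 2177 for lower, 6 to 16 for genes 8-fold lower, and 13 to 49 for genes 8-fold higher that were also called higher in pollinated than in anthesis ovaries. For genes called also between pollinated and anthesis ovaries they were 77 to 165 (higher, higher), 79 to 302 (higher, lower), 131 to 295 (lower, higher) and 37 to 121 (lower, lower). At 1 CPM in 2 libraries, which tests fewer low genes, 38 were 8-fold higher. In fits of only the groups compared, 141 were higher then lower. Of the 66 genes 8-fold higher in those fits, 11 were called higher in pollinated than in anthesis ovaries. With a covariate for the unassigned share, the 4 joint counts were 65, 65, 90 and 28, and 11 genes were 8-fold lower. Without the 4 libraries in which that share was raised there were 1858 calls (804 higher, 1054 lower), 12 genes 8-fold lower and joint counts of 40, 26, 43 and 41. Without unpollinated replicate 3 and inhibited replicate 2, a setting chosen after seeing the data, there were 1524 calls (728 and 796), 12 genes 8-fold lower and joint counts of 92 (higher, lower), 181 (lower, higher) and 47 (lower, lower). The causes of these moves were not tested. No paired analysis was possible because the labels and columns carry no replicate numbers shared across groups.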
